A study of Mus musculus with 4 samples.

Results

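A total of 2118 regions of open chromatin lay near the start of a protein-coding gene in mouse forelimb buds at embryonic day 9.5 (E9.5) and overlapped no region listed at E10.5. They were chosen by their measured overlap between the stages: each E9.5 region shared not 1 bp with any E10.5 region, lay on an autosome and had its centre no more than 2.5 kb from where a protein-coding gene starts (GENCODE vM1 gene models, mouse build mm9). They made up 2118 of the 15857 promoter-proximal E9.5 regions on autosomes, and the E9.5 list held 42613 regions in all. This count is 13.4% of the promoter-proximal E9.5 regions, and the matching share of promoter-proximal E10.5 regions without an E9.5 partner was 5.2% (775 of 14894). Both shares follow from the choice itself and are given as description. The remaining 13739 promoter-proximal E9.5 regions, which overlapped an E10.5 region, are called shared.

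The regions came from ATAC-seq, in which a transposase inserts sequencing adapters where DNA is not packed into nucleosomes. All embryos were wild type, of the NMRI strain. For E9.5, both forelimb buds of a single embryo were dissected along with the adjoining part of the trunk (the protocol gives the stage as E9.75), and for E10.5 both forelimb buds alone. One label of the E10.5 group mentions hindlimb buds too, which its other labels and the protocol do not. The 2 biological replicates of each stage were combined into 1 list before deposition, so no value has a replicate error, the read depth is unknown, and the trunk tissue, present in the E9.5 samples alone, cannot be told apart from stage. Of 18 genes of limb mesenchyme used as a check of the tissue (among them Tbx5, Prrx1, Fgf10 and Hand2), all 18 had a promoter-proximal region at both stages.

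The promoter is the stretch of DNA around a transcription start where general transcription factors and RNA polymerase assemble. Many promoters of broadly used genes and of developmental regulators lie in CpG islands, stretches rich in G, C and the CpG dinucleotide that tend to be open in most cells, whereas promoters of genes used by a single cell type often lack an island and open with that cell type. In the early embryo, the trunk beside the limb bud contains neural tube, somites, intermediate mesoderm, gut and primitive blood, and limb buds are mesenchyme under an ectoderm.

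Sequences at the members ranged from dense CpG islands to promoters almost without CpG. Each sequence below is the 120 bases before the annotated start, read 5′ to 3′ on the strand of the gene (mm9), and lies inside an E9.5-only region. Capitals mark matches on either strand to the GC box GGGCGG, to CCAAT, or to AGATAA, a form of the site of GATA factors. The first 3 belong to high-scoring members at genes with no E10.5 region near any start. They are Atxn2 (chr5:122162858-122162977, plus strand), an RNA-binding protein gene; Rbpms2 (chr9:65478269-65478388, plus strand), an RNA-binding protein gene; and Rhbdl3 (chr11:80114294-80114413, plus strand), a rhomboid-family gene. The other 4, at erythroid members, were chosen because the stretch holds a motif, so its presence there is not a result. They are the embryonic globin genes Hba-x (chr11:32176773-32176892, plus strand), Hbb-y (chr7:111001755-111001874, minus strand) and Hbb-bh1 (chr7:110991679-110991798, minus strand), and the erythropoietin receptor gene Epor (chr9:21768021-21768140, minus strand).
Atxn2: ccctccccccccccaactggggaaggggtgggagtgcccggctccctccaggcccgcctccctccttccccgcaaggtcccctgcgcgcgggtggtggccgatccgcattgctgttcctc
Rbpms2: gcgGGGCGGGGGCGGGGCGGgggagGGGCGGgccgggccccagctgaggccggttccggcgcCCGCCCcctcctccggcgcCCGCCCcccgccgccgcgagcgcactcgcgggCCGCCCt
Rhbdl3: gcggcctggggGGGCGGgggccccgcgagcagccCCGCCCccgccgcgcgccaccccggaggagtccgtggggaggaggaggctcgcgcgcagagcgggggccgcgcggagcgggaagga
Hba-x: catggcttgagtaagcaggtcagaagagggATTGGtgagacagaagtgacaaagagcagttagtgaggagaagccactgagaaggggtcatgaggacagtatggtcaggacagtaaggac
Hbb-y: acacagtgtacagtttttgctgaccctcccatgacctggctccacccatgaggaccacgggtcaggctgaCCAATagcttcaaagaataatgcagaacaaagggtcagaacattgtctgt
Hbb-bh1: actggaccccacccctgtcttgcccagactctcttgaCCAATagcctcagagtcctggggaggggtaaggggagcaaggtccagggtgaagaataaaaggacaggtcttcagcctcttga
Epor: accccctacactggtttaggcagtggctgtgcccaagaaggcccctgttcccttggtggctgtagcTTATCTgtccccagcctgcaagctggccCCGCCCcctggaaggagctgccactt

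The Rbpms2 stretch held 7 GC boxes, some of which overlap, 21 CpG and 90% GC. The Rhbdl3 stretch held 2 GC boxes and 19 CpG, and the Atxn2 stretch 8 CpG with no match to the motifs searched. The 3 globin stretches each had 1 CCAAT and at most 1 CpG, and the Epor stretch had 1 GATA match and 1 GC box. The stretch at the erythroid factor gene Nfe2, not shown, had 1 GC box and neither CCAAT nor AGATAA. Over the 120 bases before all 67114 autosomal starts, GGGCGG was found in 29.8%, CCAAT in 18.8% and AGATAA in 3.74%. A match describes the letters and not a bound site.

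E9.5-only promoter-proximal regions sat farther from the start than shared ones. Their centres lay at a median of 518 bp from the nearest start, against 136 bp for shared regions. About equal numbers lay close and farther out: 1046 (49.4%, 95% Wilson interval 47.3 to 51.5) had the centre within 500 bp, whereas 83.4% of shared regions did. The region itself covered a start in 1099 members (51.9%) and in 89.7% of shared regions. By the position of the centre, 985 members (46.5%) were in an intron, 442 (20.9%) in an untranslated exon, 251 (11.9%) in a coding exon and 440 (20.8%) outside genes. Introns held 29.0% of shared regions and untranslated exons 33.3%. Wilson intervals, here and below, cover counting error only and treat regions as independent, which neighbouring regions are not.

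**Figure D1:**
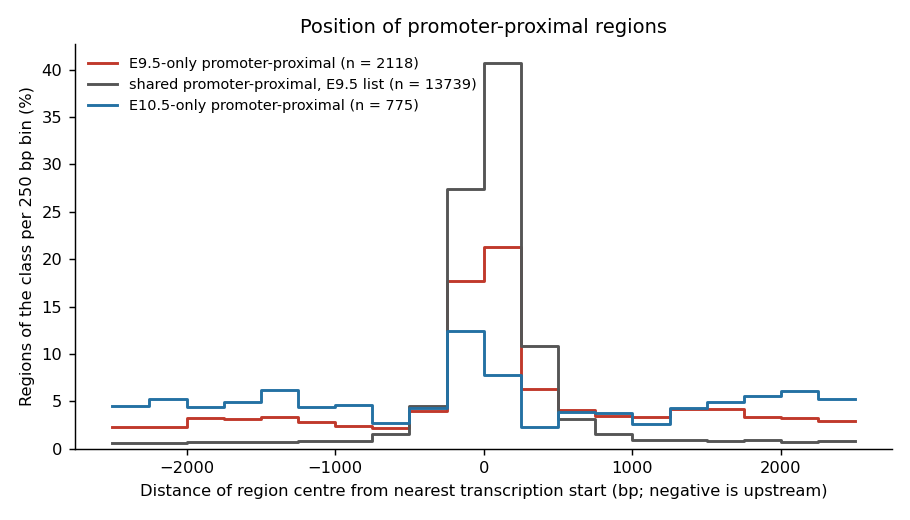
Distance of the region centre from the nearest transcription start (bp, negative is upstream) against the percent of the class in each 250 bp bin, for E9.5-only, shared and E10.5-only promoter-proximal regions. The shared class peaks at the start, whereas the E9.5-only class has a lower peak there and a flat shoulder on both sides, with 38.5% of its centres over 1000 bp away.

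Members were intermediate in base composition. Over 150 bp on either side of the centre, their median GC content was 57.5% (95% interval of the median, 57.1 to 57.8), below the 64.8% of shared regions and above the 46.8% of E10.5-only promoter-proximal regions and the 50.8% of E9.5-only regions farther than 2.5 kb from any start. The ratio of observed to expected CpG, which is near 1 where CpG has not been lost, had a median of 0.362 in members, 0.778 in shared regions and 0.235 in E10.5-only ones. With a CpG island-like window defined as a ratio of at least 0.6 and a GC content of at least 50%, 614 members (29.0%) had one, as did 70% of shared regions and 22 of the 775 E10.5-only regions (2.84%). On each of the 19 autosomes the members' median GC was below that of shared regions, by 7.6 percentage points on average (SD 2.41 over autosomes), and above that of E10.5-only regions, by 10.1 points (SD 2.55).

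Base composition differed with position within the members. The 1046 members within 500 bp of a start had a median GC of 62.8% and a CpG ratio of 0.567, and the 1072 farther out had 54.2% and 0.263. Shared regions within 500 bp had a median GC of 66.1%. The GC differences between whole classes given above were not matched for distance from the start. That distance had a median of 518 bp in members, 136 bp in shared regions and 1283 bp in E10.5-only ones.

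**Figure D2:**
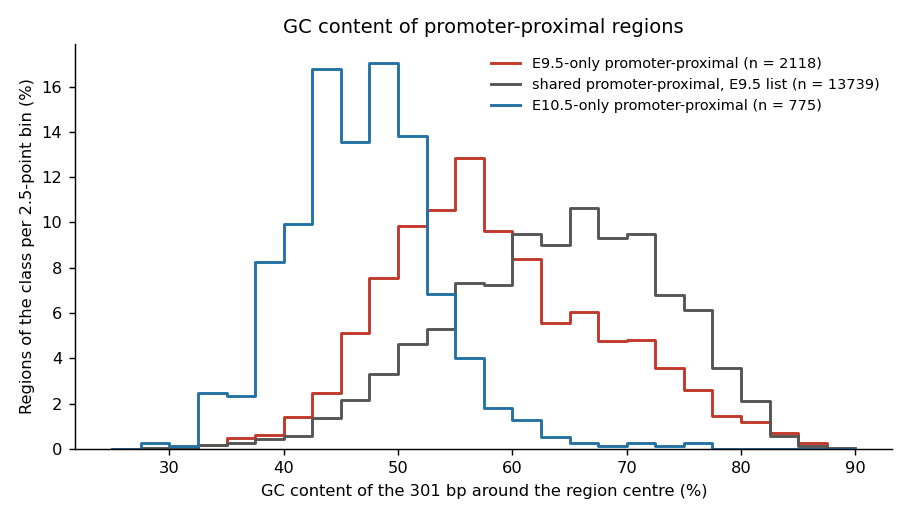
GC content of 150 bp on either side of the region centre (%) against the percent of the class in each 2.5-point bin. The E9.5-only distribution lies between the E10.5-only and the shared ones, with a tail of members above 80% GC that the E10.5-only class lacks.

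The share of regions without a partner at the other stage varied with GC differently for the 2 lists. Among E9.5 promoter-proximal regions it was highest between 45% and 50% GC, at 26.3% (268 of 1019), fell to 6.05% (86 of 1422) between 75% and 80%, and was 10.4% (45 of 433, interval 7.86 to 13.6) above 80%. Among E10.5 promoter-proximal regions the E10.5-only share was 44.6% up to 40% GC, 10.3% between 50% and 55%, and 0 of 362 above 80%, which allows a share of up to 0.829%. Above 55% GC, 1310 of 12542 E9.5 regions (10.4%) had no partner, whereas 67 of 11600 E10.5 regions (0.578%) had none. GC content thus moved with the stage-only share in both lists, and its part in the choice of members was not tested.

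**Figure D3:**
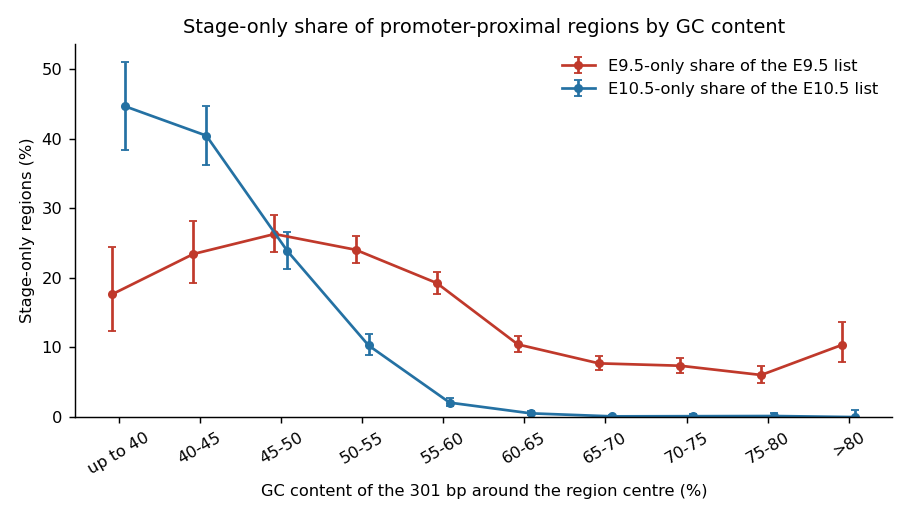
Share of promoter-proximal regions found at 1 stage only (%, with 95% Wilson intervals) by GC content of 150 bp on either side of the centre, for the E9.5 and the E10.5 list. The E10.5-only share is the higher up to 45% GC, the intervals overlap between 45% and 50%, the E9.5-only share is the higher above 50%, and above 60% GC the E10.5-only share stays under 1% while the E9.5-only share stays above 6%.

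Most members were weak. The score deposited with each region is −10 times the log10 of the p-value given by MACS, the peak caller, for the better of the replicates, so a higher score is stronger evidence of open chromatin and not a level of accessibility. The members' median score was 153 (interval 148 to 156), against 1085 for shared promoter-proximal regions, 135 for E10.5-only ones and 144 for E9.5-only distal regions. Their lowest and highest scores were 61.2 and 1867. Only 107 members (5.05%) scored 500 or more and 15 scored 1000 or more, whereas 77.2% and 53.6% of shared regions did. A further 655 members (30.9%) scored under 120, as did 2.01% of shared regions. Score moved with the choice of members and is described here without a test. No promoter-proximal E9.5 region with a score above 2000 lacked a partner (0 of 2787), and 265 of 363 with a score up to 100 did (73.0%). Members were also narrower, with a median width of 974.5 bp against 1660 bp for shared regions.

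**Figure D4:**
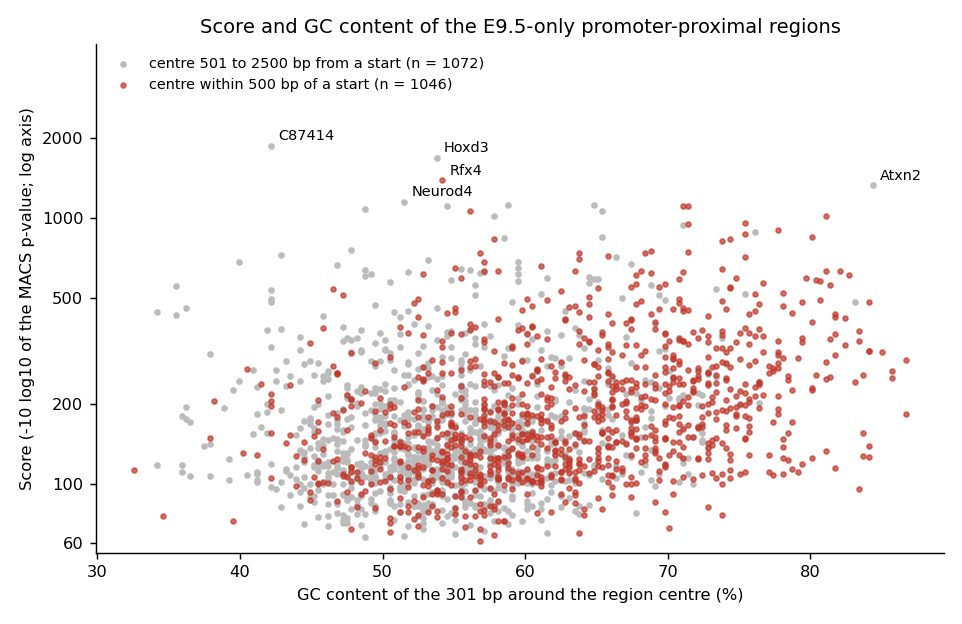
GC content of 150 bp on either side of the centre (%) against score on a log axis for the 2118 members, split by distance of the centre from the start, with the 5 highest-scoring regions named. Most points lie between scores of 100 and 300, and members close to a start reach higher GC than members farther out.

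The highest-scoring members included transcription factor genes of the neural tube and of body axis patterning. Hoxd3 had both the second-highest score, 1681 (chr2:74569826-74575286, centre in an intron, 5461 bp wide), and the sixth, 1115 (chr2:74583204-74585982, coding exon). Rfx4, a winged-helix factor of the neural tube, had 1386 (chr10:84217190-84220992), Neurod4, a bHLH factor of neurone differentiation, had 1148 at 2025 bp upstream of its start, and Hoxb7 had 1108 (chr11:96145105-96149359). The region at Ski, a repressor of TGF-beta signalling, scored 1114, and that at Furin, a protease that processes growth factor precursors, scored 1019 at 81.1% GC. Atxn2 scored 1322 at 84.4% GC, 49610 bp from the nearest E10.5 region, Rbpms2 scored 1104 and Rhbdl3 1103. The others of the 15 highest were Gm9851 (1079), Agap2 (1062), Btbd17 (1057) and D930028M14Rik (1011), with C87414 at the top (1867).

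C87414 was also the widest member, at 6458 bp. It and the nearby Gm7792 (3484 bp, GC 34.2%) belong to a repeated gene family on chromosome 5, where reads that align to a single place are hard to assign, so these values are uncertain. After them the widest were Hoxd3 (5461 bp), Agap2 (4650 bp), Hoxb7 (4255 bp), Rfx4 (3803 bp), Llgl2 (3717 bp), Cntfr (3600 bp), Mark2 (3589 bp) and Hoxb3 (3364 bp). By GC content, the top members were at Mpped1 and Jph3 (both 86.7%), Cacna1d and Lrfn1 (both 85.7%) and Clec2l (85.0%), and none of these 5 genes had an E10.5 region near a start. Jph3 and Cacna1d act in calcium handling of excitable cells. The lowest GC was at Cd36 (32.6%), a fatty acid receptor, Pigk and Gm7792 (both 34.2%), Gm10719 (34.6%) and the histone gene Hist2h3c1 (35.5%).

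The 2118 members reached 1908 genes within 2.5 kb of a start. That is 8.97% of the 21281 autosomal protein-coding genes and 13.6% of the 14041 with any E9.5 region near a start. At 816 of the 1908 genes (42.8%) no E10.5 region was centred within 2.5 kb of any start, which is 5.81% of the genes with an E9.5 region. These are called here genes without an E10.5 region. At 1070 genes (56.1%) the member lay beside a shared region of the same gene. The members whose genes all lacked an E10.5 region, 894 in number, had a median GC of 62.1% and a median distance of 200 bp, and the other 1224 had 55.2% and 1067 bp. The centre lay within 500 bp of a start in 605 of the first kind (67.7%) and in 441 of the second (36.0%).

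Most genes with a member had a single one (1649 genes), 209 had 2 and 50 had 3 or more. Rap1gap, a GTPase-activating protein gene, had 6 members among its 8 E9.5 regions and 2 E10.5 regions. Hoxd3, the histone demethylase gene Kdm2b and the Rac exchange factor gene Prex1 had 5 each. Arhgap8, Hoxd4, Kcnip2, the nucleoside transporter gene Slc29a1 and the receptor kinase gene Tyro3 each had 4 E9.5 regions, all members, and no E10.5 region. Hoxb3, Ski, Speg and the planar polarity gene Vangl1 also had 4 members, and had 1 to 3 E10.5 regions. Exactly 3 members lay at 37 genes, 15 of which had no E10.5 region: AB041803, Ache, Arhgef16, C87414, Csdc2, Cyp26a1, Ecel1, Gm9979, Hes3, Igfbpl1, Palm3, Rasgef1a, Rhbg, Rtbdn and Tmod1. The others were Adamtsl5, Azi1, Bcat1, Casz1, Ddr1, Emp1, Frmd4b, Glis2, Heyl, Hoxa3, Hoxb6, Ip6k2, Lasp1, Lrp8, Mcf2l, Nrxn2, Ostm1, Plch1, Rara, Tcf4, Tead1 and Tmc8. A gene with several starts spans more sequence, and the counts were not corrected for it.

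Genes were next grouped by 43 lists of families, pathways and cell types, 3 of them chosen after the members had been seen, and a list's share is read against the 13.6% of all genes with an E9.5 region. A region within 2.5 kb of starts of several genes counted for each of them, so a gene named below was not always the nearest. No list was tested, since 1 list of regions per stage gives no error between embryos, neighbouring genes share regions, and a gene can be in several lists.

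**Figure D5:**
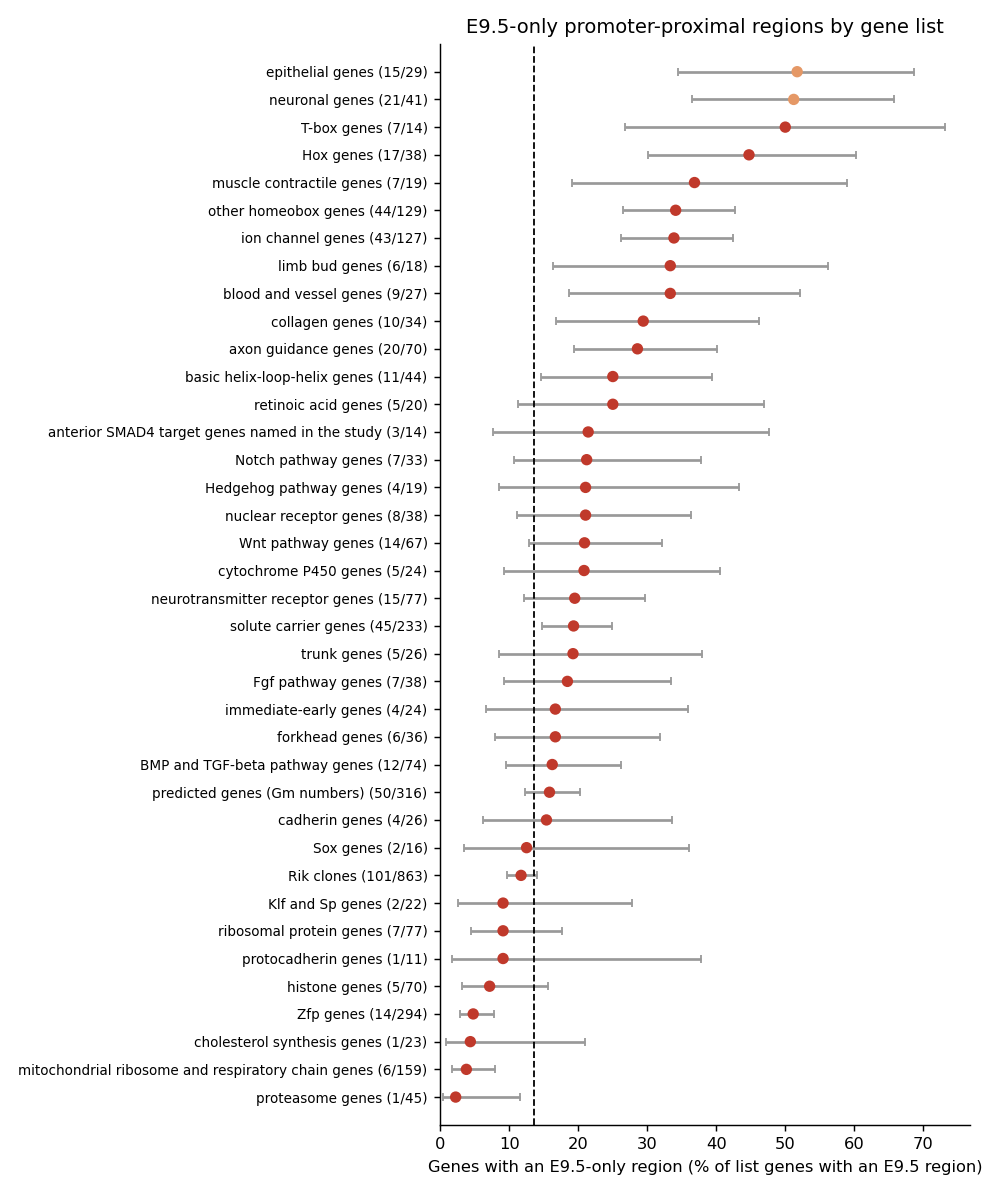
Percent of each list's genes with at least 1 E9.5-only promoter-proximal region, among its genes with any E9.5 region near a start (counts in brackets; lists with at least 10 such genes), with 95% Wilson intervals. The dashed line is the 13.6% over all genes, and orange points are lists chosen after the members had been seen. Mitochondrial, proteasome and Zfp genes lie below the line with intervals that do not reach it. Intervals of other lists, Hox, other homeobox and ion channel genes among them, lie wholly above it. The intervals treat genes as independent and are not a test.

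Hox genes, homeodomain factors that set position along the trunk and limb axes, were among the lists with the largest share. A member was found at 17 of the 38 with an E9.5 region (44.7%, interval 30.2 to 60.3), through 29 regions with a median score of 243. Of the 39 autosomal Hox genes, 28 had regions at both stages and 10 had none centred within 2.5 kb of a start at E10.5: Hoxa13, Hoxb1, Hoxb4, Hoxb7, Hoxb8, Hoxb9, Hoxb13, Hoxc8, Hoxc9 and Hoxd4. Hoxb4 had 2 E9.5 regions, of which 1 was a member. The other overlapped an E10.5 region centred more than 2.5 kb from any Hoxb4 start. No Hox gene had a region at E10.5 only. In the Hoxb cluster on chromosome 11, 9 of the 10 genes had a member, with Hoxb2 the exception. Hoxb9 scored 870 (chr11:96131590-96134539, 75.4% GC) and Hoxb1 449 at its start, whereas Hoxb8 (142), Hoxb13 (171), Hoxc8 (173), Hoxc9 (140) and Hoxa13 (128) were weak. In the Hoxd cluster, members lay at the 3′ genes Hoxd3 and Hoxd4, where 1 region of score 847 (chr2:74564228-74567295) reaches both, and Hoxd8 to Hoxd13 had none.

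Other homeobox genes had a member at 44 of 129 (34.1%, interval 26.5 to 42.6), 19 of them without an E10.5 region. The highest scores were at Gbx1 (945, a neural factor), Pbx2 (751, a Hox cofactor), Cdx1 (713, a factor of posterior axis patterning), Nkx2-9 (519, ventral neural tube) and Irx5 (501.2). Gbx1, Pbx2 and Cdx1 had no E10.5 region, and Nkx2-9 and Irx5 did. The member at Irx5 lay 290 bp from an E10.5 region and the one at Pbx2 2535 bp.

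T-box genes had a member at 7 of 14 (50%, interval 26.8 to 73.2): Tbx1 (512), Tbx4 (190 and 153), T (183), Tbx10 (158), Tbx3 (119 and 107), Tbx21 (91.5) and Tbx5 (89.9). T, the mesoderm gene Brachyury, Tbx10 and Tbx21 had no E10.5 region. Tbx5, required to start the forelimb bud, had 1 region at each stage, and its E9.5 region was 599 bp from the nearest E10.5 region, so the pair differs by position and not by presence near the gene. Tbx4 and Pitx1, which mark the hindlimb and were looked at after their members had been seen, also had members. The Pitx1 members scored 364 and 136, were 91275 and 86956 bp from any E10.5 region, and Pitx1 had no E10.5 region.

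Pax genes had a member at 2 of 8, Pax2 (673 and 106) and Pax7 (334), and neither had an E10.5 region. Pax2 marks the intermediate mesoderm that forms the kidney, and Pax7 the dorsal neural tube and muscle precursors. Among bHLH genes, 11 of 44 (25%) had a member, 7 of them without an E10.5 region. After Neurod4 came the neurogenic factor gene Neurog1 (735, chr13:56352587-56354352, 54 bp from its start), Tcf21 (390), Mesp1 (316), a factor of early mesoderm, and Lyl1 (173). Forkhead genes had 6 of 36, Foxp4 (617) first, then Foxb1 (285 and 157), Foxe1 (241), Foxp2 (199), Foxi2 (194) and Foxp1 (121 and 105.3). Foxb1, Foxe1 and Foxi2 had no E10.5 region.

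Nuclear receptor genes had 8 of 38, with Nr2f2 at 318 first and Nr5a2 (268), Rxrb (182), Nr4a2 (173), Thra (172), Nr2e1 (138) and Rara (109) among the others. Fewer members lay at Sox genes (2 of 16: Sox13, 291, and Sox14, 109), Klf and Sp genes (2 of 22: Sp9, 538, and Sp6, 114), Gata genes (1 of 5: Gata3, 113) and Zfp genes (14 of 294, 4.76%, interval 2.86 to 7.83). Zfp385a (624 and 258), Zfp423 (330), Zfp61 (241), Zfp362 (229) and Zfp316 (220) led the last list.

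Among signalling pathways, members at Notch pathway genes had the highest median score, 336, over 14 regions. Members lay at 7 of 33 Notch genes (21.2%, interval 10.7 to 37.8). They were at the ligand genes Dll1 (482 and 291), Dll3 (479 and 240) and Dll4 (342), at Mfng (452 and 352), a modifier of the receptor, at the target genes Hes3 (363, 361 and 330) and Heyl (309, 275 and 190), and at Dtx1 (104). Dll3, Dll4, Hes3, Mfng and Dtx1 had no E10.5 region. Dll1, Dll3, Hes3 and Mfng are known from the segmenting trunk or the neural tube.

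Wnt pathway genes had members at 14 of 67 (20.9%, interval 12.9 to 32.1). The ligand genes Wnt4 (954, chr4:136832449-136834979, 75.4% GC, 77445 bp from any E10.5 region) and Wnt6 (416) scored highest, followed by the secreted inhibitor gene Sfrp2 (398), the nuclear effector gene Tcf7l2 (239) and the agonist gene Rspo1 (237). Wnt4 and Rspo1 had no E10.5 region, and neither did Wnt1 (159) or Wnt10b (149), which were chosen after their values were seen. Fgf pathway genes had members at 7 of 38 (18.4%): the ligand genes Fgf3 (369), Fgf11 (246 and 206), Fgf8 (209) and Fgf4 (106), the receptor genes Fgfr4 (359) and Fgfr2 (148), and the target gene Etv5 (81.7). The Fgf11 region of score 246 lay nearer to another gene, Tmem102. Fgf8 and Fgf4 are ligands of the apical ectodermal ridge of the limb bud, and Fgf3, Fgf8, Fgf4 and Fgfr4 had no E10.5 region near a start.

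Hedgehog pathway genes had members at 4 of 19: the antagonist gene Hhip (311), the ligand genes Ihh (254) and Dhh (133), and the receptor gene Ptch1 (118 and 116). Ihh and Dhh had no E10.5 region, and Hhip and Ptch1 did. Retinoic acid genes had 5 of 20 (25%). Aldh1a2, which makes retinoic acid in the trunk mesoderm, scored 632 (chr9:71062712-71064858, 189 bp from its start), and Cyp26a1, which degrades it, had 3 members (213, 145 and 116). Neither of these 2 genes had an E10.5 region, and Rxrb (182), Crabp2 (174) and Rara (109, 102 and 95.8) had one. BMP and TGF-beta pathway genes had members at 12 of 74 (16.2%, interval 9.53 to 26.2), close to the background. After Ski (1114, 378, 145 and 111) these were led by Ltbp4 (368), Nbl1 (298), Fstl3 (247) and Bmp8b (145), and Nodal (113) was chosen after its value was seen. Nbl1, Bmp8b and Nodal had no E10.5 region, and Ski, Ltbp4 and Fstl3 had one or more. Of 14 anterior limb bud genes that the study names as SMAD4 targets, 3 had a member, Sfrp2 (398), Lhx2 (279) and Prrx2 (171), and all 14 had an E10.5 region.

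Genes of neurones and excitable cells carried many members. Ion channel genes had one at 43 of 127 (33.9%, interval 26.2 to 42.5), 24 of them without an E10.5 region, with Kcnip3 (596), Kcng1 (568) and Kcnj4 (480) among the highest. Neurotransmitter receptor genes had 15 of 77 (19.5%), with Adra2c (517), Drd2 (332), Chrna4 (251), Grik3 (222) and Chrna6 (217) highest in the list. The dopamine receptor gene Drd1a, whose symbol the list does not include, had a member too (255) and no E10.5 region. Drd2, a dopamine receptor gene, was 114786 bp from any E10.5 region. Axon guidance genes had 20 of 70 (28.6%), but only 3 of the 20 lacked an E10.5 region. They were led by Ntn1 (885), Ntng2 (835), Sema6b (360), Slit3 (313) and Unc5a (282).

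A list of 44 autosomal genes of neurone differentiation and synapse, chosen after members near such genes had been seen, had a member at 21 of 41 (51.2%, interval 36.5 to 65.8). Elavl3 (942), an RNA-binding protein of neurones, Ache (644 and 351), the acetylcholinesterase gene, Celf3 (532), Myt1 (459) and Syt2 (362) came first. Of the 44 genes, 32 had regions at both stages, 9 had none at E10.5 and 3 had none at all. For these lists, the trunk tissue in the E9.5 samples and the stage cannot be told apart.

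Epithelial genes, also a list chosen after members had been seen, had a member at 15 of 29 (51.7%, interval 34.4 to 68.6), 11 of them without an E10.5 region. Llgl2 (494), the protease inhibitor genes Spint2 (333) and Spint1 (272), the tight junction gene Cldn3 (262) and the ectodermal factor gene Grhl3 (208) scored highest. The member at Cdh1, which encodes E-cadherin, scored 150 at 22 bp from the start (chr8:109126812-109127789), 41246 bp from any E10.5 region. Epcam, Dsp, Esrp1 and Grhl2, likewise epithelial, had regions at both stages and no member, and Krt5, Krt14 and Trp63 had no E9.5 region, so the list did not move as a whole. Of 39 genes in it, 18 had regions at both stages, 11 had none at E10.5, 2 had none at E9.5 and 8 had none at all.

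Of 90 autosomal keratin and keratin-associated genes, 7 had an E9.5 region, and each of the 7 had a member. They were Krtap4-8 (353), Krtap11-1 (230), Krt23 (136), Krt19 (125 and 68.7), Krt18 (124), Krt8 (117) and Krt7 (104), and only Krt8 had an E10.5 region. Krt8, Krt18, Krt7 and Krt19 encode filament proteins of simple epithelia. The regions at Krtap4-8 and Krtap11-1 lay 2047 and 1705 bp from those starts, the first nearer to another gene, Gm11595.

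The blood and vessel list had a member at 9 of 27 (33.3%, interval 18.6 to 52.2). The 3 embryonic globin genes had the highest scores: Hbb-y 682 (1818 bp from the start) and 158 (161 bp from it), Hba-x 641, and Hbb-bh1 552 (2050 bp) and 95.5 (28 bp). The region of score 552 lay nearer to Hbb-bh2, 649 bp from its start. None of them had an E10.5 region, and the regions at the beta-globin locus were 56135 to 67520 bp from the nearest one. The erythroid factor gene Nfe2 (353 and 78.9), Epor (203), Runx1 (181), Lyl1 (173), the vessel genes Egfl7 (148 and 136) and Flt4 (147) followed. The adult globin genes Hba-a1, Hba-a2, Hbb-b1 and Hbb-b2 were without a region at either stage, as were Cdh5, Pecam1 and Tek. Reads that align to several places were dropped, so the lack of a region at these paired adult globin copies is uncertain. Gata2, Tal1, Klf1, Kdr and Fli1 had regions at both stages and no member. In the whole list, 23 genes had regions at both stages, 4 had none at E10.5, 0 had none at E9.5 alone and 12 had none at all, and the part that the amount of blood in the dissected tissue had in the globin regions was not tested.

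Muscle contractile genes had a member at 7 of 19 (36.8%, interval 19.2 to 59.0), at Des (283), Tnnt3 (277), Tnni1 (156 and 136), Myh11 (113), Myl7 (87.6), Ttn (86.2) and Tagln (65.5). The Tnnt3 region lay 2445 bp from that start, nearer to another gene, Gm14492. Of the 41 genes, 20 had no region at either stage, Acta1, Actc1, Myh6 and Myh7 included. Collagen genes had 10 of 34 (29.4%), led by Col13a1 (369), Col9a1 (335), Col8a2 (301.4), Col28a1 (227) and Col15a1 (212). Cadherin genes had 4 of 26 (Cdh4, 189, Cdh1, Cdh15, 124, and Cdh23, 114), and protocadherin genes 1 of 11 (Pcdh1, 179). Solute carrier genes had 45 of 233 (19.3%, interval 14.8 to 24.9), 26 without an E10.5 region, with the neuronal chloride transporter gene Slc12a5 (734), Slc31a2 (638), Slc6a2 (422), Slc29a1 (383) and Slc6a9 (351) highest. Cytochrome P450 genes had 5 of 24, all 5 without an E10.5 region, namely Cyp27b1 (307), Cyp26a1, Cyp4f15 (170), Cyp1a1 (117) and Cyp17a1 (77.0).

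The trunk list, which covers somite, neural tube, intermediate mesoderm, gut and heart genes, had a member at 5 of 26 (19.2%, interval 8.51 to 37.9). They were Pax2 (673 and 106), Nkx2-2 (348), Wt1 (234), Lhx1 (128) and Hand1 (112). Of its 29 autosomal genes, 24 had regions at both stages, 2 (Pax2 and Hand1) had none at E10.5 and 3 had none at all. Pax1, Pax9, Meox1, Tcf15, Myf5 and Pax6, defining genes of somite and neural tube, had E10.5 regions and no member. The limb bud list had a member at 6 of 18 (33.3%, interval 16.3 to 56.2), at Lhx2 (279), Meis2 (216), Meis1 (176), Prrx2 (171), Tbx3 and Tbx5, none of them without an E10.5 region. The intervals of the trunk and limb lists overlap, and the part of trunk tissue in the members was not tested.

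Mitochondrial ribosome and respiratory chain genes had one at 6 of 159 (3.77%, interval 1.74 to 7.99), at Atp5d (472 and 113), Mrpl33 (127), Cox6a1 (117), Mrps6 (116), Atp5b (103) and Cox6a2 (76.0). Proteasome genes had 1 of 45, at Psmb8 (125), a subunit of the immunoproteasome, and cholesterol synthesis genes 1 of 23, at Sc4mol (115). Ribosomal protein genes had 7 of 77 (9.09%, interval 4.47 to 17.6), all with an E10.5 region. They were Rpl36 (483), Rpl13a (240), Rpl23 (195), Rps10 (131), Rpl18 (122 and 88.9), Rps13 (108) and Rplp2 (103), and the members at Rpl13a, Rpl23 and Rpl18 lay nearer to another gene. Histone genes had 5 of 70 through 3 regions, 1 of which (150) reached Hist1h2ao, Hist1h2bq and Hist1h4m, and the other 2 were at Hist2h3c1 (430) and Hist2h2aa2 (135). Histone copies are near-identical, so their values are uncertain. Immediate-early genes had 4 of 24: Egr4 (198 and 166), Egr3 (175), Nr4a2 (173) and Fosl1 (99.7). Olfactory, vomeronasal and taste receptor genes had 0 of 1440, counted over all genes of the list, which allows a share of up to 0.208%. Only 3 of them had any E9.5 region, so this share is not comparable with those of the other lists.

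Predicted genes with Gm numbers had 50 of 316 (15.8%), led by Gm9851 (1079), Gm996 (592), Gm7276 (447), Gm7792 (441) and Gm10684 (376), and Rik clones 101 of 863 (11.7%), led by D930028M14Rik (1011), 2210011C24Rik (716), 4930449E01Rik (666), A730020M07Rik (574) and 2410015M20Rik (483). Both intervals include the 13.6% over all genes.

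Of 19 short motifs counted, 6 are given. Motif frequencies in the same windows of 150 bp on either side of the centre were lower in members than in shared regions for 2 of them and higher for 4. The GC box GGGCGG was found in 35.7% of members (interval 33.7 to 37.8), 58.3% of shared and 6.71% of E10.5-only regions, and in 55.3% of all promoter-proximal E9.5 regions. The ETS core CCGGAA was found in 9.07% of members against 21.2% of shared regions, and in 19.6% of all. Both are motifs common in promoters of broadly used genes. Conversely, AGATAA was found in 10.9% of members (interval 9.65 to 12.3) and 3.95% of shared regions (4.88% of all), the E-box CATCTG in 21.2% and 11.5% (12.8% of all), TGACAG, a form of the TALE homeodomain site, in 20.8% and 14.5% (15.3% of all), and TGACTCA, the AP-1 site, in 4.86% and 2.32% (2.66% of all). In the E9.5-only distal regions these were 17.0%, 30.6%, 27.9% and 6.52%. In the E10.5-only promoter-proximal regions they were 12.39%, 28.65%, 23.1% and 5.81%, so shares above those of shared regions were not particular to members.

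With only windows of 50% to 65% GC counted, the direction was the same for each of these 6 motifs. Distance from the start, which differed between members and shared regions, was not matched. GGGCGG was found in 26.4% of members and 43.7% of shared regions, CCGGAA in 9.39% and 22.7%, AGATAA in 11.2% and 4.97%, CATCTG in 23.9% and 15.3%, TGACAG in 23.4% and 17.6%, and TGACTCA in 5.40% and 3.001%. Both strands were searched, overlaps between motifs were allowed, and the 6 were picked after their shares had been seen.

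At the limits of the rule, the scores of the few members and other regions listed here overlapped. The 3 members nearest to an E10.5 region were at BC019943 (6 bp away, score 191), Onecut1 (10 bp, 118) and 2810432D09Rik (14 bp, 84.1), and the 3 shared regions with the smallest overlap were at Trpm5 (19 bp, score 92.3), Enpp3 (27 bp, 225) and 2900060B14Rik (42 bp, 167). The members farthest from a start were at Tinagl1 (score 95.9) and Pon2 (71.0), both 2496 bp away, and the nearest E9.5-only regions beyond the limit were at Prss32 (2503 bp, 122) and 4930444P10Rik (2504 bp, 81.3). The distance from a member to the nearest E10.5 region had a median of 6678 bp. It was under 100 bp for 36 members, under 1000 bp for 420 (19.8%), at least 10000 bp for 848 (40.04%) and at least 100000 bp for 28.

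Members were found on every autosome, from 38 on chromosome 18 to 258 on chromosome 11. Their share of the promoter-proximal E9.5 regions ranged from 8.09% on chromosome 14 to 18.6% on chromosomes 4 and 11, with 18.03% on chromosome 15. Chromosome 11 carries the Hoxb cluster, Hba-x, Krt19 and Tbx4.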

How the data were processed

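ATAC-seq reads from wild-type embryos, 2 biological replicates per stage, were aligned by the authors to mm9 with Bowtie 1.1.0, allowing up to 2 mismatches and keeping reads with a single alignment. Regions were called with MACS 1.4 and the replicates combined with MSPC (stringent p 1e-10, weak p 1e-06), as the submitters' notes and the study's methods give them. The deposited lists, 1 per stage, pool the replicates, and the deposited score is −10 log10 of the better p-value, as assigned by the authors. Reads that align to several places were dropped, which affects repeated families. Depth is not given in the sources used here.

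Python 3.11.15 with numpy 2.4.6, pandas 2.3.3 and scipy 1.17.1 assigned each region to the nearest start of a transcript of 22380 protein-coding GENCODE vM1 genes, counted overlaps of at least 1 bp, and read GC content from 150 bp on either side of the centre in the reference of the same build, on which 0 regions passed a chromosome end. Intervals are 95% Wilson intervals for shares and binomial order intervals for medians. Overlap, gap and distance code was tested on simulated lists. With 1 list per stage, no test across embryos was made.

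The members, gene lists and motifs were chosen with earlier results of these data known. Named were the 15 highest-scoring, 10 widest, 5 highest-GC and 5 lowest-GC members, genes with 3 or more members, the 5 highest-scoring genes of each list (all where 8 or fewer) and regions at the limits of the rule. Other genes named, including genes of a list without a member, those past the fifth of a list and the individual Hox genes, were chosen after their values were seen. A few items that this rule would name are not reported here.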

Additional observations from a re-analysis of the deposited data

How the results depend on the processing

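Each of the 7 summary values was recomputed under alternative definitions, 44 values in all. Of these, 17 stayed within 1.5 times the count or inside the interval of the value reported. The other 27 moved beyond these limits. The values are counts, shares and medians, which have no direction, so a reversal was not tested. Requiring a reciprocal overlap of 50% to call regions shared gave a share of E9.5-only regions of 17.8%, a median score of 189 and a median width of 1112 bp. Leaving out members with an E10.5 region within 1 kb gave a share of 10.7% and a median GC of 58.1%. A promoter distance of 1 kb gave 1302 regions at 1235 genes, a share of 9.48%, and medians of 164 (score), 1014 bp (width) and 60.8% (GC). A distance of 5 kb gave 3191 regions, a share of 17.3%, and medians of 148, 955 bp and 56.1%. With starts of protein-coding transcripts only, the share was 11.8% and the median GC 58.1%. Taking the higher-scoring 50% of the E9.5 list left 422 regions at 424 genes, 247 of them without an E10.5 region, a share of 3.33%, and medians of 368, 1528.5 bp and 63.5%; of all settings this changed the count most. GC of the whole region had a median of 54.99%, and members within 500 bp of a start, a setting chosen after seeing the data, one of 62.8%. The number of genes with a member and no E10.5 region was 789 to 837 under the other settings.

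The gene-list counts were not recomputed. No paired analysis was possible because the replicates were merged before deposition, and for the same reason leaving out a replicate was not run. The lists give no depth, so a region missing from a list was not detected there, which does not show closed chromatin.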

Other observations

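A further 28 E9.5-only promoter-proximal regions lay off the autosomes and are not among the members.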
